A study of Mus musculus with 45 samples.

Results

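GP38-positive stromal cells of mouse visceral adipose tissue (VAT) were compared between males and females. They make up 4 of the 45 RNA-seq libraries of a series on sex differences in the regulatory T cells (Treg) of this fat and in the cells around them, and they were picked by library name alone, as the stroma libraries named for GP38 and not for its absence. The 2 male libraries are M1 and M2 and the 2 female libraries F1 and F2. Each pooled cells of 4 C57BL/6 mice aged 25 weeks, sorted by flow cytometry as negative for CD45, negative for Ter119 and positive for GP38. No mutation, transgene or treatment is named for any of these mice. Beside them stand 4 GP38-negative libraries from the same kind of sort (2 male and 2 female, again 4 mice in each pool) and 6 libraries of whole VAT (3 male and 3 female, each from 3 pooled mice of the same strain and age). Names of the whole VAT libraries carry the letters ND, which names of the stromal libraries do not. Whole VAT was epididymal fat in males and periovarian fat in females, so the sex of the mouse and the fat pad cannot be told apart. P-values measure the spread between these pools.

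GP38, or podoplanin, is a membrane glycoprotein encoded by Pdpn that marks fibroblast-like stromal cells of lymphoid organs and of fat. In visceral fat, mesenchymal stromal cells include the precursors of adipocytes, lay down extracellular matrix and secrete hormones, growth factors and cytokines, among them IL-33, which sustains the Treg of this depot. Sorting out CD45-positive and Ter119-positive cells is meant to remove leukocytes and red cell precursors and to leave mesenchymal, endothelial, mural and mesothelial cells.

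Reads assigned to genes came to 44665670 and 16455770 in male libraries M1 and M2, and to 40604802 and 53297127 in female libraries F1 and F2, within the 4956080 to 61913009 of the whole series. Levels are depth-scaled counts (CPM, with trimmed-mean library scaling), M1 before M2 and F1 before F2. Genes on the X and Y chromosomes and genes with no known chromosome were left out throughout, which left 15332 autosomal genes tested. Counts were tested with edgeR's quasi-likelihood test over the 8 stromal libraries, and a gene is said to be called, higher or lower, when its Benjamini-Hochberg adjusted p was under 0.05. Log2 fold changes are male over female unless another contrast is named.

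The sort label held on its defining markers. Pdpn stood at 322.5 and 333 CPM in male GP38-positive libraries and at 298 and 316.3 CPM in female ones, and the 4 GP38-negative libraries had 2.41 to 17.9 CPM. Over both sexes it was higher in GP38-positive cells by 5.53 on the log2 scale (edgeR adjusted p = 0.000586), and Pdgfra, the platelet-derived growth factor receptor of mesenchymal cells, by 5.83 (edgeR adjusted p = 0.000139). Between the sorts 6524 genes were called (42.6%), and 12 of 14 fibroblast markers were higher in GP38-positive cells and none lower, where 19.8% of all genes were higher and 22.8% lower. The sums of those 14 markers were 87730 and 105200 CPM in male pools and 99310 and 110800 CPM in female pools, against 6744 to 9508 CPM in GP38-negative ones. Agt and Igf1, which are also used to mark these cells, did not separate the sorts over both sexes (log2 fold changes of -0.21 and 0.24, edgeR adjusted p = 0.517 and 0.207).

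In GP38-positive libraries RNA of other cell types was low beside that of fibroblasts. The 14 leukocyte markers gave sums of 177.2 and 21.5 CPM in male GP38-positive libraries, against 46.7 and 68.2 CPM in female ones, and the T cell gene Cd3e had no count in M2, F1 and F2. The sums were 209.1 and 202.3 against 152.4 and 191 CPM for 10 blood endothelial markers, 210.8 and 231.5 against 260.1 and 257.6 CPM for 12 pericyte and smooth muscle markers, 275.7 and 157.8 against 179.4 and 248.2 CPM for 14 mesothelial markers, and 55.4 and 26.9 against 11.7 and 40.4 CPM for 12 adipocyte markers. At most 3 markers of any one of these 5 lists had no count in a library, Acvr1c, Pck1 and Adrb3 of the adipocyte list in M2. Blood endothelial sums were higher and pericyte sums lower in both male pools than in both female pools, while the other sums overlapped, and the part of these cells in the results was not tested. No member of these 5 lists, nor of the lymphatic endothelial, erythroid, Schwann cell, ovary or epididymis lists, was called between the sexes in GP38-positive stroma. Of the pericyte list DESeq2 called 2 higher and 4 lower and edgeR on the 4 libraries alone 1 lower, and DESeq2 called 1 erythroid marker higher. The totals of both tests over all genes are given in the next paragraph.

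A small set of genes differed strongly between male and female GP38-positive stroma. Of the 15332 genes, 50 were called (0.326%), 31 of them higher (0.202%) and 19 lower (0.124%) in males. Log2 fold changes of the higher genes ran from 1.36 to 14.28 with a median of 2.38, and those of the lower genes from -10.26 to -1.54 with a median of -3.37. Over both sexes, 15 of the 50 were called higher and 23 lower in GP38-positive than in GP38-negative cells. Of all genes, 19.8% and 22.8% were. Male libraries did not overlap with female ones in any of the 50, but that was so for 40.4% of all genes. The number of calls depends on how the spread is estimated: DESeq2 called 514 genes, all 50 among them, edgeR on the 4 GP38-positive libraries alone called 262, of which 41 were among the 50, and 1231 genes had an unadjusted p under 0.05. List members called by DESeq2 or by edgeR on the 4 libraries alone are to be read beside these totals of 514 and 262. Leaving out M1, M2, F1 or F2 left 1, 3, 7 and 1 calls, and Agt was called each time.

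**Figure D1:**
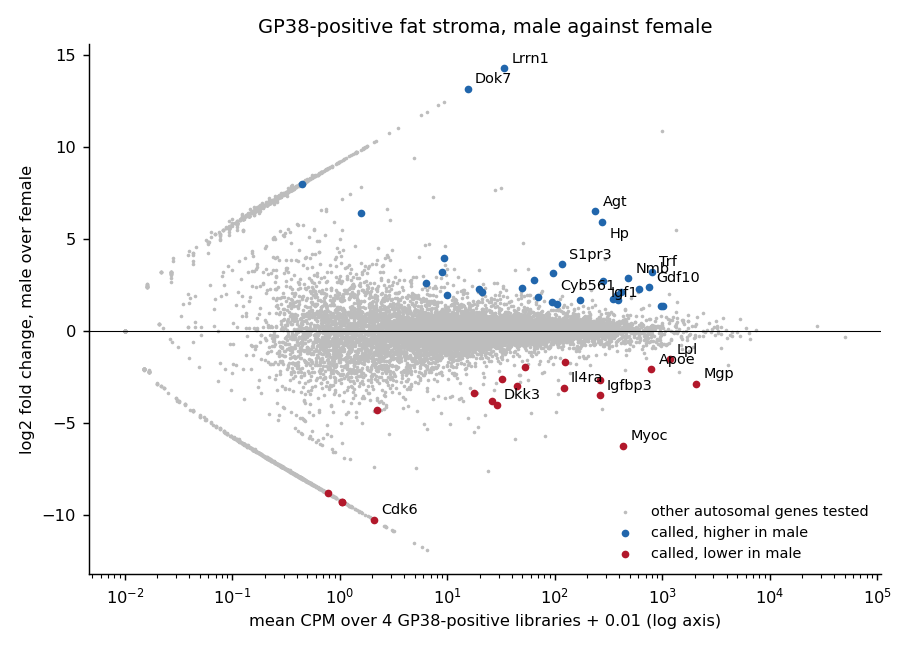
Log2 fold change of male over female GP38-positive stroma (y axis) against mean level over the 4 libraries in CPM (x axis, log scale) for 15332 autosomal genes. Blue points are the 31 genes called higher in males, red points the 19 called lower, grey points all others; the diagonal edges are genes with no count in one sex, whose fitted fold depends on a prior count.

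Angiotensinogen had the smallest p-value of the autosomal genes tested. Agt (Entrez 11606) encodes the secreted precursor of the angiotensin peptides. It stood at 444.9 and 503.2 CPM in male against 3.73 and 6.78 CPM in female GP38-positive libraries. Both male pools lay far above both female ones, by 6.49 on the log2 scale (SE 0.44, edgeR adjusted p = 0.00621), and across the 10 alternatives tried the fold change stayed between 6.09 and 6.96. In the authors' deposited log2 FPKM values, which divide by gene length, Agt ranked 300 and 266 among 14788 autosomal genes in M1 and M2, and 9227 and 7808 in F1 and F2. In bulk RNA of sorted cells, fewer cells that express a gene and less RNA per cell cannot be told apart.

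In GP38-negative stroma the Agt levels of the sexes overlapped, at 49.8 and 64.2 CPM in males, against 73.5 and 44.5 CPM in females (log2 fold change -0.05). The sex effect of GP38-positive cells was larger by 6.54 on the log2 scale (SE 0.54, edgeR adjusted p = 0.019 for the difference). Relative to GP38-negative cells of the same sex, GP38-positive cells thus had more Agt in males and less in females. Whole VAT had 78.7, 120.5 and 89.6 CPM in males, against 155.8, 160.3 and 116.9 CPM in females, and the gene was not called there (log2 fold change -0.58, edgeR adjusted p = 0.287).

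Agt was the single called gene among 9 tested members of the renin-angiotensin system, whose median log2 fold change was 0.31, against 0 over all genes. Here and below, list members that are named without being called were picked after their values were seen, except Pdpn, Pdgfra, Il33, Ccl2, Ccl7, Ccl8, Il6, Esr1 and Hsd11b1. Ace, the enzyme that turns angiotensin I into angiotensin II, had 1425 and 2281 CPM in male against 533.9 and 384.5 CPM in female GP38-positive libraries, a difference of 2.01 on the log2 scale that missed the threshold (edgeR adjusted p = 0.0795), and whole VAT had Ace called higher in males by 1.39 (edgeR adjusted p = 0.000146). Agtr1a, an angiotensin II receptor, had 66.1 and 54.0 CPM in males, against 78.8 and 58.9 CPM in females, with overlapping pools. Renin (Ren1) had 5 counts in M2 and none in M1, F1 or F2. DESeq2 and edgeR on the 4 libraries alone each called 2 members of the list higher and 1 lower. Levels of the precursor and of the converting enzyme did not overlap between the sexes, and those of the receptor did. Of all genes, 40.4% did not overlap.

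Igf1, the gene of the secreted insulin-like growth factor 1 (IGF-1), stood at 469.4 and 509 CPM in male against 80.6 and 67.0 CPM in female GP38-positive libraries. Males were higher by 2.73 on the log2 scale (SE 0.22, edgeR adjusted p = 0.00872), and this sex effect was larger than in GP38-negative cells by 2.30 (SE 0.29, edgeR adjusted p = 0.04995). Igfbp3, a binding protein that holds IGF in the extracellular space, went the other way, with 41.9 and 43.8 CPM in males against 425 and 542.2 CPM in females (log2 fold change -3.50, SE 0.34, edgeR adjusted p = 0.0202).

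Of 13 tested IGF members Igf1 was the only one called higher and Igfbp3 the only one called lower, with a median log2 fold change of -0.21. DESeq2 called 1 higher and 3 lower, and edgeR on the 4 libraries alone 1 higher and 2 lower. Igf2, the other ligand, had 6.17 and 3.93 CPM in males against 12.4 and 7.97 CPM in females and was not called (-1.01, SE 1.09). Igfbp5, another binding protein, had 69.1 and 119.1 CPM in males, against 369.5 and 300.2 CPM in females, but was not called (log2 fold change -1.83, edgeR adjusted p = 0.15). It was called by DESeq2 (adjusted p = 0.000167) and by edgeR on the 4 libraries alone (adjusted p = 0.0193). The receptor Igf1r had 22.4 and 26.0 CPM in males, against 28.4 and 16.0 CPM in females, and the binding proteins Igfbp4, Igfbp6 and Igfbp7 had log2 fold changes between -0.21 and 0.01. In whole VAT Igf1 was not called (log2 fold change -0.15, edgeR adjusted p = 0.497) and Igfbp3 was called lower in males by a smaller amount (-0.89, edgeR adjusted p = 0.0208).

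Genes of secreted carrier proteins were among those higher in males. Hp, which encodes haptoglobin, the plasma protein that binds free haemoglobin, had 601.3 and 487.8 CPM in male against 7.25 and 10.7 CPM in female GP38-positive libraries (log2 fold change 5.92, SE 0.46, edgeR adjusted p = 0.00872). Trf, which encodes the iron carrier transferrin, had 1223 and 1656 CPM in males, against 136.3 and 173.4 CPM in females (log2 fold change 3.22, SE 0.33, edgeR adjusted p = 0.0258). For both genes every male pool lay several-fold above every female pool. Slc40a1, the gene of the iron exporter ferroportin, was lower in males, at 11.8 and 8.45 CPM against 90.9 and 67.1 CPM in females (log2 fold change -2.96, edgeR adjusted p = 0.0313). Cyb561, which encodes an electron-transporting cytochrome of secretory vesicles, was higher in males by 3.13 (182.5 and 166.5 against 20.9 and 19.0 CPM, edgeR adjusted p = 0.00744).

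**Figure D2:**
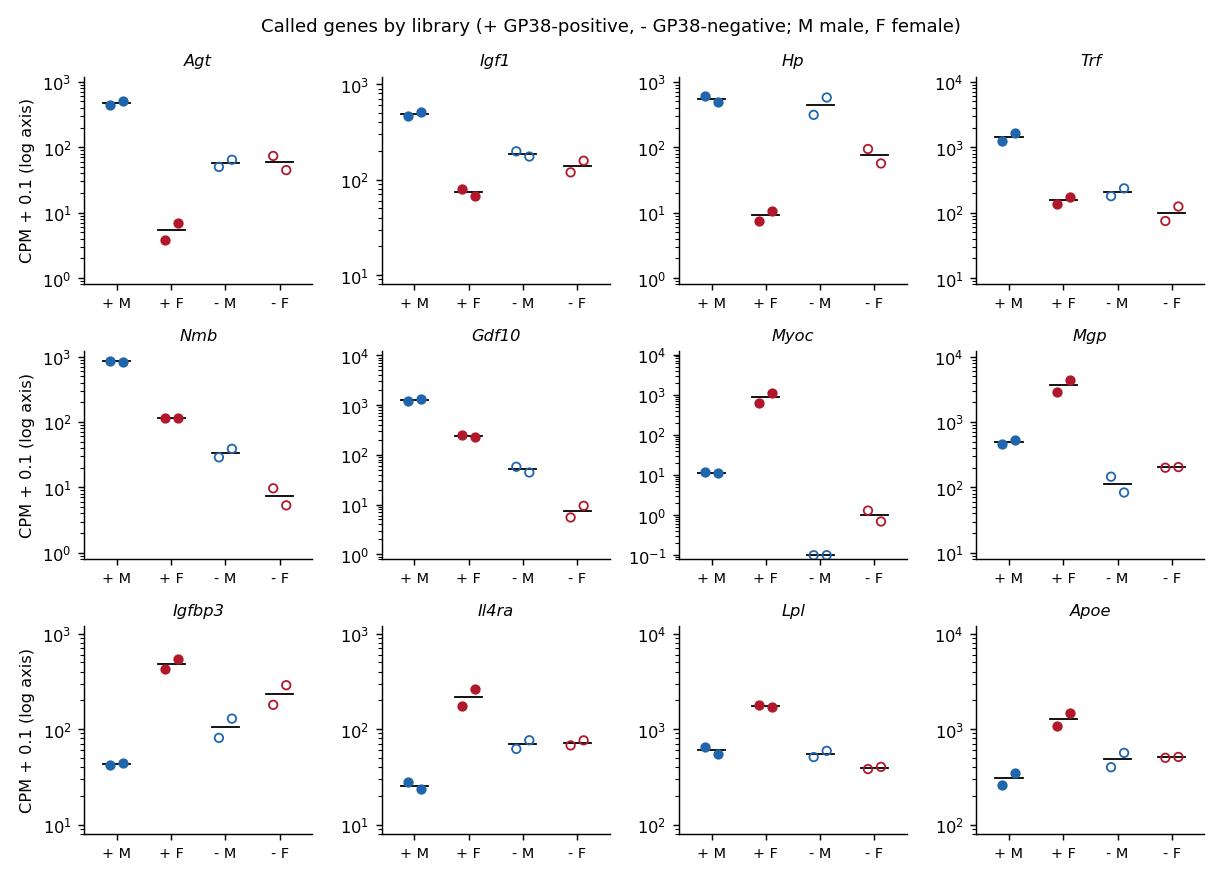
Level of 12 called genes in each stromal library (CPM + 0.1, log axis; blue male, red female; filled GP38-positive, open GP38-negative; the bar is the group mean of 2 libraries). In the filled points the male pools lie above the female pools for Agt, Igf1, Hp, Trf, Nmb and Gdf10 and below them for Myoc, Mgp, Igfbp3, Il4ra, Lpl and Apoe; Agt, Il4ra and Apoe are close to level in the open points.

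Several signalling genes were also higher in males. Nmb, which encodes the peptide neuromedin B, had 868.3 and 820.1 CPM in male against 115.2 and 116.3 CPM in female libraries (log2 fold change 2.87, SE 0.31, edgeR adjusted p = 0.0295). Gdf10, a secreted member of the TGF-beta family also known as BMP3b, had 1180 and 1347 CPM against 251.7 and 232.3 CPM (2.38, SE 0.29, edgeR adjusted p = 0.0326). S1pr3, a receptor for sphingosine 1-phosphate, had 218.7 and 214.4 CPM against 24.2 and 11.1 CPM (3.62, SE 0.41, edgeR adjusted p = 0.0313). Gdf10 was the one called gene of 21 tested TGF-beta and BMP ligands and inhibitors (median log2 fold change 0.26). DESeq2 and edgeR on the 4 libraries alone each called 2 of this list higher and none lower.

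The rest of the largest rises were of genes at lower levels. Lrrn1, a leucine-rich repeat membrane protein gene, had 63.1 and 71.9 CPM in males and no count in either female library, at least 1915-fold higher in male pools when 3 counts over both female libraries are taken as the limit. Dok7, which encodes an activator of the muscle receptor kinase MuSK, had 36.2 and 25.8 CPM in males and no count in females, at least 979.7-fold higher by the same limit. Mrap, an accessory protein of the ACTH receptor, was higher by 3.19 (15.2 and 17.2 against 2.11 and 1.44 CPM), and Clic5, a chloride intracellular channel gene, by 3.96 (15.0 and 20.2 against 1.68 and 0.588 CPM). These bounds cover counting error only. Over both sexes Mrap and Clic5 were called lower in GP38-positive than in GP38-negative cells (log2 fold changes between the sorts of -2.76 and -4.13). The fold change of Clic5 was 4.85 without F1 and 3.35 without F2, and the gene was not called in either case.

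Among the lower genes, Myoc, the gene of the secreted glycoprotein myocilin, stood at 11.9 and 10.8 CPM in male against 630.4 and 1078 CPM in female GP38-positive libraries (log2 fold change -6.24, SE 0.45, edgeR adjusted p = 0.0164). Mgp, matrix Gla protein, an inhibitor of calcification and of BMP signalling, had 462.9 and 538.8 CPM in males, against 2894 and 4352 CPM in females (-2.85, SE 0.33, edgeR adjusted p = 0.0313). Dkk3, a secreted glycoprotein related to the Dickkopf inhibitors of WNT signalling, had 4.23 and 2.53 CPM against 45.8 and 63.2 CPM (-4.00, SE 0.51, edgeR adjusted p = 0.0367). In the deposited log2 FPKM values Mgp ranked 62 and 58 among autosomal genes in males and 5 and 4 in females, so that it was among the most abundant transcripts per length of female cells. Dkk3 was the one called gene of 20 tested WNT ligands and inhibitors (median log2 fold change 0.42). Of this list DESeq2 called none higher and 2 lower, and edgeR on the 4 libraries alone 1 higher and 4 lower.

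Il4ra, which encodes the receptor chain shared by IL-4 and IL-13, had 27.9 and 23.2 CPM in male against 172.8 and 262 CPM in female libraries (log2 fold change -3.09, SE 0.28, edgeR adjusted p = 0.0166). Gucy1a1 and Gucy1b1 encode the 2 subunits of soluble guanylate cyclase, the receptor of nitric oxide. Gucy1a1 had 2.40 and 4.72 CPM in males, against 45.1 and 51.6 CPM in females (-3.80, edgeR adjusted p = 0.0313), and Gucy1b1 had 8.55 and 9.45 CPM against 49.1 and 62.1 CPM (-2.63, edgeR adjusted p = 0.0313). Both subunits were lower in males, and their genes lie 17716 bp apart on chromosome 3 in GRCm38.p6. Over both sexes the 2 genes were called lower in GP38-positive than in GP38-negative cells (-4.24 and -2.17 between the sorts). In GP38-negative cells their male over female log2 fold changes were -1.85 and -1.02, not called (edgeR adjusted p = 0.085 and 0.169).

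Among 12 preadipocyte markers 2 were lower in males and none higher, with a median log2 fold change of -0.84, and among 25 tested genes of lipid uptake, storage and release 2 were lower and none higher, with a median of 0.46. With DESeq2, and likewise with edgeR on the 4 libraries alone, the lipid list had 4 higher and 2 lower calls and the preadipocyte list 1 higher and 4 lower. The number of lipid genes called higher thus depends on the test. Lpl, the lipase that frees fatty acids from circulating triglyceride, is on both lists and had 647.5 and 550.3 CPM in male against 1796 and 1690 CPM in female libraries (-1.54, SE 0.17, edgeR adjusted p = 0.0295). Icam1, an adhesion molecule of early preadipocytes, had 49.95 and 67.7 CPM in males, against 187.8 and 192 CPM in females (-1.69, edgeR adjusted p = 0.0326). Apoe, the lipoprotein ligand apolipoprotein E, had 259.8 and 348.3 CPM against 1086 and 1465 CPM (-2.07, edgeR adjusted p = 0.0367).

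Ces1d, a carboxylesterase with triglyceride hydrolase activity, had 69.2 and 73.7 CPM in males, against 348.1 and 569.7 CPM in females (log2 fold change -2.68, edgeR adjusted p = 0.0313). Other members of the 2 lists, picked here after their values were seen, did not all point the same way. Pparg, the master regulator of adipogenesis, had 10.9 and 14.2 CPM in males, against 39.6 and 30.3 CPM in females (-1.48, edgeR adjusted p = 0.103), whereas the fatty acid carrier Fabp4 had 933.7 and 659.2 CPM against 175.7 and 287.3 CPM (1.78, edgeR adjusted p = 0.0921). None of 10 markers of Dpp4-positive interstitial progenitors and none of 17 adipogenic transcription factors and inhibitors was called. DESeq2 and edgeR on the 4 libraries alone each called 1 Dpp4 list member lower and none higher. Of the adipogenic list DESeq2 called 1 higher and 1 lower, and edgeR on the 4 libraries alone 1 higher and none lower.

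Of 34 tested matrix-modifying enzymes and inhibitors 3 were higher in males and none lower (median log2 fold change -0.01). Serpine2, a serine protease inhibitor, had 683.4 and 514.4 CPM in male against 152.8 and 154.8 CPM in female libraries (1.96, SE 0.23, edgeR adjusted p = 0.0313). Timp3, a matrix-bound inhibitor of metalloproteinases, had 1305 and 1508 CPM against 596 and 490.3 CPM (1.37, SE 0.17, edgeR adjusted p = 0.0367), and Lox, which cross-links collagen and elastin, 497.1 and 584.5 CPM against 147.4 and 172.6 CPM (1.76, SE 0.23, edgeR adjusted p = 0.0377). None of 26 tested collagens and none of 40 tested glycoproteins and proteoglycans passed, with medians of 0.01 and 0.06. DESeq2 called 2 glycoproteins and proteoglycans higher and 7 lower, and edgeR on the 4 libraries alone 1 higher and 6 lower. Of the collagens DESeq2 called 2 higher and edgeR on the 4 libraries alone 1 higher, with none lower in either. The matrix-modifying list had 3 higher and 2 lower calls with DESeq2 and 4 higher and 2 lower with the 4 libraries alone. The abundant proteoglycan lumican (Lum), picked after its value was seen, stood at 1893 and 1682 CPM in males, against 5895 and 6908 CPM in females (-1.84, edgeR adjusted p = 0.0569).

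**Figure D3:**
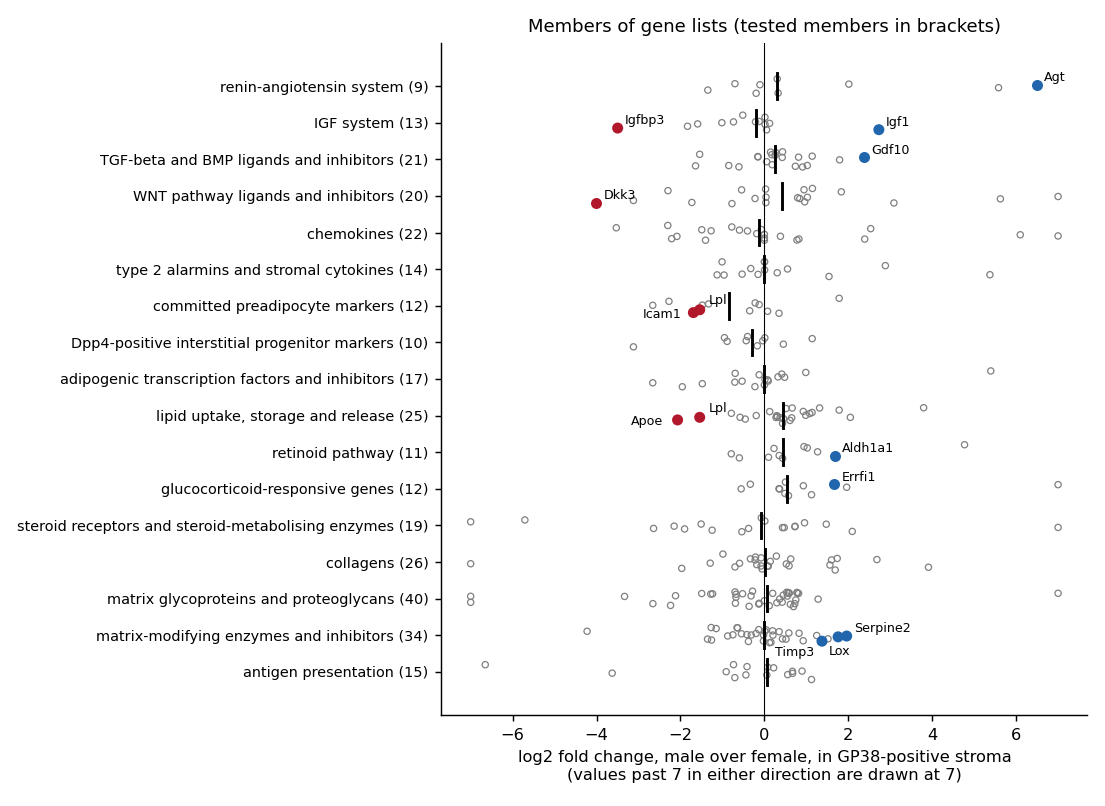
Log2 fold change of male over female GP38-positive stroma for the tested members of 17 gene lists (x axis; 9 genes past 7 in either direction are drawn at 7). Filled points are called genes (blue higher, red lower in males), open points are not called, and the black bar is the list median; most medians lie close to 0, and each list holds between 0 and 3 called genes.

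Hormone-related lists held few calls. Aldh1a1, an enzyme that makes retinoic acid, was the one called gene of 11 tested in the retinoid pathway, at 270.2 and 255.8 CPM in male against 91.6 and 72.1 CPM in female libraries (log2 fold change 1.68, edgeR adjusted p = 0.0313). Errfi1, a feedback inhibitor of the EGF receptor that glucocorticoids induce, was the one called gene of 12 glucocorticoid-responsive ones, at 594.8 and 590 CPM against 164.5 and 207.6 CPM (1.67, edgeR adjusted p = 0.026). None of 19 tested steroid receptors and steroid-metabolising enzymes was called (median -0.07), against 3 higher and 2 lower with DESeq2 and 2 higher and 2 lower with edgeR on the 4 libraries alone. The same alternatives gave 3 higher and none lower in both the retinoid and the glucocorticoid list. Hsd11b1, which regenerates active glucocorticoid, had 1851 and 1566 CPM in males, against 976.6 and 1088 CPM in females (0.73, edgeR adjusted p = 0.198). DESeq2 called it (adjusted p = 0.000355), and edgeR on the 4 libraries alone did not (adjusted p = 0.0891). Hsd11b1 was called higher in males in GP38-negative cells (1.04, edgeR adjusted p = 0.0455) and in whole VAT (0.80, edgeR adjusted p = 0.000388). Esr1, the oestrogen receptor alpha gene, had 11.7 and 10.3 CPM against 53.9 and 44.1 CPM (-2.15, SE 0.59, edgeR adjusted p = 0.328). It was called by DESeq2 (adjusted p = 0.0209) and by edgeR on the 4 libraries alone (adjusted p = 0.00789), and was also called lower in males in GP38-negative cells (-4.69, edgeR adjusted p = 0.0354) and in whole VAT (-1.29, edgeR adjusted p = 5.86e-05).

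Some wide gaps did not pass the test. The genes of this paragraph were picked after their values were seen. Sult1e1, the sulfotransferase that inactivates oestrogen, had 2119 and 1845 CPM in male against 2.19 and 0.0203 CPM in female GP38-positive libraries, a gap of 10.86 on the log2 scale with an SE of 1.58 and an edgeR adjusted p of 0.0788. It was called by DESeq2 (adjusted p = 3.63e-06), by edgeR on the 4 libraries alone (adjusted p = 0.00425) and in whole VAT, where it had 22.5 to 33.2 CPM in males and at most 0.0948 CPM in females (log2 fold change 9.63, edgeR adjusted p = 6.46e-07). The complement gene C7 had 2045 and 3186 CPM against 72.4 and 44.4 CPM (5.49, SE 1.12, edgeR adjusted p = 0.151) and was also called higher in males in whole VAT (5.15, edgeR adjusted p = 8.25e-06). By the deposited log2 FPKM values Sult1e1 ranked 21 and 29 among autosomal genes in male GP38-positive cells and 9355 and 12036 in female ones.

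None of 42 tested developmental and positional transcription factors was called in GP38-positive stroma, while DESeq2 called 3 higher and 1 lower, and edgeR on the 4 libraries alone 4 higher and 4 lower. Hoxa10 had 1.33 and 1.53 CPM in male against 88.2 and 81.1 CPM in female libraries (log2 fold change -5.89, SE 1.87, edgeR adjusted p = 0.462), and Hoxc10 had 0.0712 and 2.00 CPM against 44.3 and 30.3 CPM (-5.24, edgeR adjusted p = 0.279). Hoxa10 had an adjusted p of 0.0959 with DESeq2 and 0.000239 with edgeR on the 4 libraries alone, and Hoxc10 of 0.000276 and 0.0574. In whole VAT both were called lower in males, at 0.025 to 0.148 CPM against 44 to 58.7 CPM for Hoxa10 and at 0.0296 to 0.226 CPM against 15.3 to 24.9 CPM for Hoxc10. Other genes of the same clusters had higher levels in the male GP38-positive pools without being called, with Hoxa5 at 18.9 and 25.4 CPM against 4.26 and 5.60 CPM and Hoxc8 at 70.6 and 81.6 CPM against 28.9 and 14.4 CPM; both were called by DESeq2 (adjusted p = 0.00713 and 0.00572) and with the 4 libraries alone (adjusted p = 0.0376 and 0.0455). Of these, Hoxa5 was called lower in males in whole VAT (-0.75, edgeR adjusted p = 0.00884), the opposite sign.

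**Figure D4:**
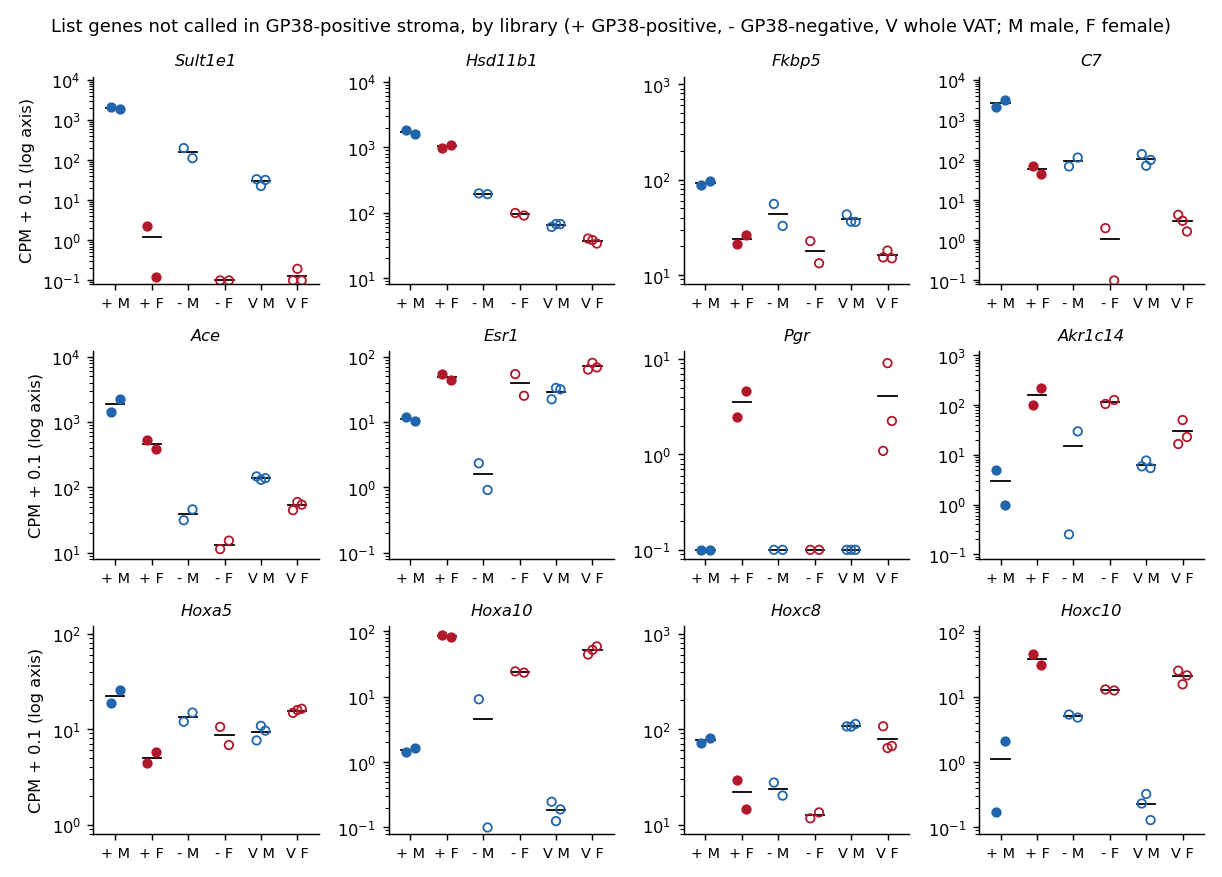
Level of 12 list genes that were not called in GP38-positive stroma, in each library (CPM + 0.1, log axis; + GP38-positive, - GP38-negative, V whole VAT; blue male, red female; the bar is the group mean). Sult1e1 stands at 2119 and 1845 CPM in the male and at 2.19 and 0.0203 CPM in the female GP38-positive pools, and Hoxa10 at 1.33 and 1.53 CPM against 88.2 and 81.1 CPM, with the same order of the sexes in whole VAT.

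Il33, the alarmin that sustains VAT Treg, had 28.0 and 7.78 CPM in male against 20.1 and 31.7 CPM in female GP38-positive libraries, with overlapping pools and a log2 fold change of -0.53 (SE 1.73). None of 14 tested alarmins and stromal cytokines passed (median 0.00), and Il6 overlapped likewise, at 23.4 and 9.05 CPM against 11.1 and 21.3 CPM. Among 22 tested chemokines none passed (median -0.13), whereas DESeq2 called 1 higher and 6 lower and edgeR on the 4 libraries alone none higher and 3 lower. The CCR2 ligand genes had log2 fold changes of 0.82 for Ccl2 (76.4 and 69.8 CPM in males against 38.6 and 44.1 CPM in females), -0.40 for Ccl7 (65.1 and 56.8 against 77.6 and 83.5 CPM) and -2.08 for Ccl8 (8.45 and 2.60 against 19.3 and 27.8 CPM), with edgeR adjusted p of 0.871, 0.78 and 0.806 and SEs of 0.58, 0.24 and 1.29. In whole VAT Ccl2 was called higher in males (1.84, edgeR adjusted p = 0.00148). The nearest to the threshold was Cx3cl1, the membrane-bound chemokine fractalkine, picked after its value was seen, at 2.07 and 1.46 CPM against 24.2 and 16.9 CPM (-3.53, edgeR adjusted p = 0.0544, against 3.18e-08 with DESeq2 and 0.0102 with the 4 libraries alone).

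H2-Q7, a gene of the MHC class I Qa region, was lower in males at 3.11 and 3.19 CPM against 23.6 and 41.6 CPM (log2 fold change -3.37, SE 0.36, edgeR adjusted p = 0.0295). Near-identical neighbours in that region can split its reads, so its level is uncertain. None of 15 genes of antigen presentation was called, whereas DESeq2 called 3 lower and edgeR on the 4 libraries alone 1 lower. Neither called any higher. Lymphocyte genes appeared at trace level: Lck and Klrk1 had no count in either male GP38-positive library and 1.39 and 2.76, and 1.25 and 1.81 CPM in the female ones, at least 40.8-fold and 29.5-fold higher in females by the limit of 3 counts. In GP38-negative cells the same 2 genes stood at 63.7 to 149.8 CPM in males and 41.1 to 102.6 CPM in females. Cd2, another T and NK cell gene, and Cdk6 were called with the same pattern. Leukocyte RNA was not confined to female pools. The 14 leukocyte markers had a median log2 fold change of 1.08, with none called. Their sums were highest in M1 (177.2 CPM) and lowest in M2 (21.5 CPM). The part that other cells in the sort play in these traces was not tested.

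The sex effect was then set against that of GP38-negative stroma, where 138 genes were called (0.9%), 31 higher (0.202%) and 107 lower (0.698%) in males. GP38-negative libraries held more leukocyte, adipocyte and pericyte RNA. Leukocyte marker sums were 3513 and 3356 CPM in males against 1790 and 1621 CPM in females. Adipocyte sums were 5619 and 8847 against 3701 and 4136 CPM, and pericyte sums 1303 and 1223 against 3311 and 2846 CPM. The part of these cells in the GP38-negative sex effects was not tested. Of the 50 genes called in GP38-positive cells 6 were called in GP38-negative cells in the same direction and 4 in the opposite one, and 30 had the same sign. These overlaps rest on GP38-negative calls that fell to 0 with the compared groups alone and to 2 with a replicate block by library name. The test of the difference called 34 genes (0.222%; 0.163% with a more positive and 0.0587% with a more negative effect in GP38-positive cells), among them 18 of the 50. The interaction count rests on single pools: it was 0 without any one of the 4 GP38-positive or of the 2 female GP38-negative libraries, and 477 and 291 without male GP38-negative library M1 and M2, and DESeq2 called 764.

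The 6 genes called in both sorts in the same direction were Gdf10, Nmb, Hp, Lox, Dok7 and Myoc. Gdf10 was higher in male GP38-negative cells by 2.79 (57.3 and 44.0 CPM against 5.39 and 9.31 CPM, edgeR adjusted p = 0.0238) and Nmb by 2.19 (edgeR adjusted p = 0.0354). Myoc had no count in male GP38-negative libraries and 1.19 and 0.591 CPM in female ones. Genes called in opposite directions included Serpine2, Rgs4 and Cyp2j9. Serpine2 had 60.6 and 44.2 CPM in male against 170 and 190.9 CPM in female GP38-negative libraries, -1.78 on the log2 scale (edgeR adjusted p = 0.032), and the difference of the 2 sex effects was 3.75 (SE 0.32, edgeR adjusted p = 0.0214). Rgs4, a regulator of G protein signalling, and Cyp2j9, a cytochrome P450, are outside the naming rule, and their sex effects differed by 3.77 and 3.04.

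Further genes whose sex effect differed between the sorts were Il4ra, Lpl, Ces1d and Dkk3, each lower in males in GP38-positive and not called in GP38-negative stroma. For Il4ra the GP38-negative levels were 62.0 and 76.3 CPM in males, against 67.4 and 76.1 CPM in females, and the difference of the effects was -3.03 (SE 0.37, edgeR adjusted p = 0.04995). The differences were -2.03 for Lpl, -3.60 for Ces1d and -5.40 for Dkk3 (edgeR adjusted p = 0.04995 for each). Fgf7, a growth factor gene for epithelial cells, and Bmp5 were not called between the sexes in GP38-positive cells (log2 fold changes -0.12 and -0.61); they were named by the interaction because male GP38-negative libraries had no count of them.

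**Figure D5:**
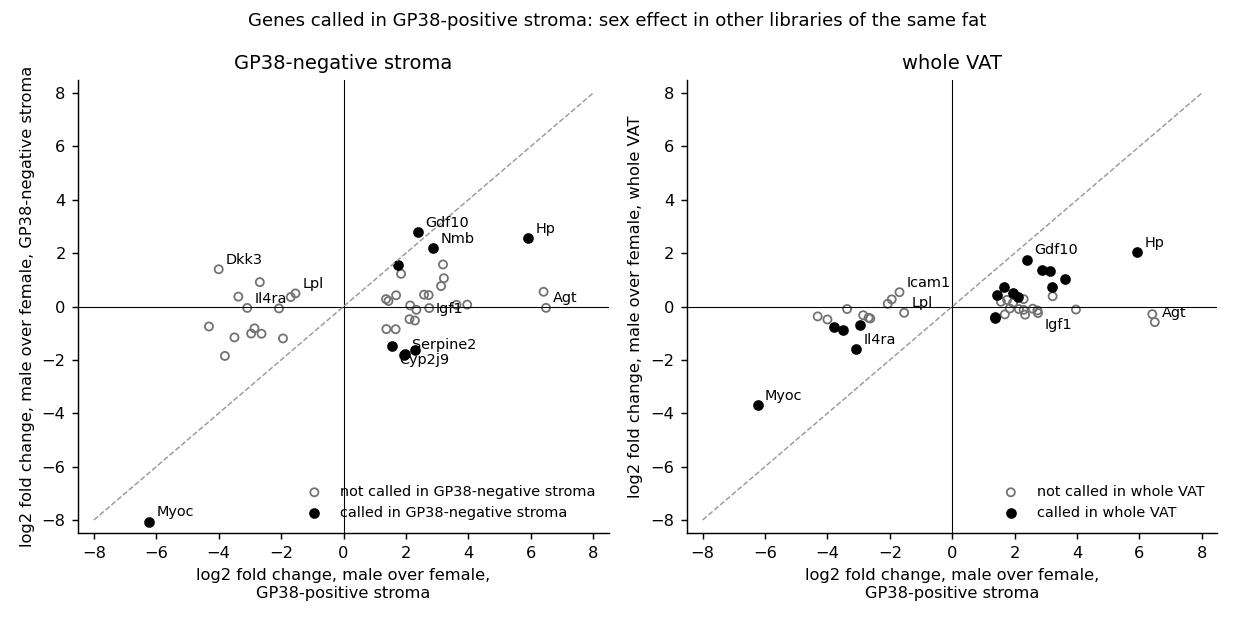
Log2 fold change of male over female in GP38-negative stroma (left, y axis) and in whole VAT (right, y axis) against that in GP38-positive stroma (x axes) for 43 of the 50 called genes; the 7 with no count in one sex are not drawn, and the dashed line marks equal values. Filled points are called in the other libraries too; Agt lies near 0 in both panels, Gdf10 near the line, and Myoc low in both, with no count in male GP38-negative libraries.

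Whole VAT, from other pools of mice and made with another library kit, had 2090 of 15823 autosomal genes called (13.2%), 8.44% higher and 4.77% lower in males. All 50 genes were tested there, 17 were called in the same direction (12 higher, 5 lower), 2 in the opposite one, and 30 had the same sign. Whole VAT also holds adipocytes, leukocytes and vessels, so its values are not those of the sorted cells. Hp had 3112 to 3689 CPM in male and 576.9 to 949.2 CPM in female VAT (log2 fold change 2.03, edgeR adjusted p = 0.000508), and Myoc 1.25 to 1.603 CPM against 7.22 to 28 CPM (-3.71, edgeR adjusted p = 0.0035). Il4ra had 47 to 56.5 CPM in male VAT and 60.8, 195.9 and 213 CPM in female VAT (-1.599, edgeR adjusted p = 0.00491), with 1 female pool close to the males. The opposite pair was Timp3 (-0.45, edgeR adjusted p = 0.0201) and Plpp3, a lipid phosphatase gene outside the naming rule (-0.41, edgeR adjusted p = 0.0131).

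Promoter windows of 250 bases before an annotated start were read from a RefSeq table (GRCm38.p6) for 34 of the 50 genes and for 11626 of the autosomal genes tested. Where a gene had several windows, only the first listed was used. The Apoe window lies inside the annotated span of the gene (chr7:19696244-19701310), so it is not before the outermost start. Agt and Myoc, which lead the 2 directions in the text above, and Nmb and Apoe, a higher and a lower gene whose window holds the steroid receptor motif AGAACA, are shown 5′ to 3′ on the gene's strand; capitals mark TATAAA (Agt and Myoc) or AGAACA on either strand (Nmb and Apoe).
Agt (chr8:124569707-124569956, minus strand): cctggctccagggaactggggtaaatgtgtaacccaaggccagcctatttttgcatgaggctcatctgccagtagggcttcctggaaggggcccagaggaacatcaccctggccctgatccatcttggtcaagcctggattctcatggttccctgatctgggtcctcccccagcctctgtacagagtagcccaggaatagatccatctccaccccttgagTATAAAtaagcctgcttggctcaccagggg
Nmb (chr7:80905063-80905312, minus strand): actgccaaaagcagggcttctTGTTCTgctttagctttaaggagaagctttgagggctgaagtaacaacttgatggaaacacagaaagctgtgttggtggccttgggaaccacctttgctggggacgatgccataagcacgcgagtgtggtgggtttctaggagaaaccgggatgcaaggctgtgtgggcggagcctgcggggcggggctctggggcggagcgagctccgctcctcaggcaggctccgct
Myoc (chr1:162638900-162639149, plus strand): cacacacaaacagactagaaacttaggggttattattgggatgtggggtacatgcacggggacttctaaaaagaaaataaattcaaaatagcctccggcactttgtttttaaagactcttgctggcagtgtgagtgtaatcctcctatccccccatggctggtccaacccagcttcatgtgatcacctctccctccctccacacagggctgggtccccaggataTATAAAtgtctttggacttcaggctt
Apoe (chr7:19699189-19699438, minus strand): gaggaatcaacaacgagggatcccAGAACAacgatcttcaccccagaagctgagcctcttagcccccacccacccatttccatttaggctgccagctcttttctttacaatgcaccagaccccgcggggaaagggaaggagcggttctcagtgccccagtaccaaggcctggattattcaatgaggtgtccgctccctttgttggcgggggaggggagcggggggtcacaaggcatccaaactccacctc

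AGAACA, part of the element that androgen and glucocorticoid receptors share, on either strand, was in the window of 6 of 21 genes called higher (28.6%) and 3 of 13 called lower (23.1%), against 10.8% of all 11626 windows. The full element (AGAACA, 3 bases of any kind, TGTTCT) was in none of the 11626, and the oestrogen receptor element (GGTCA, 3 bases of any kind, TGACC) was in no called gene and in 2 of all windows (0.0172%). TATAAA on the gene's strand was in 2 of the 21 (9.52%) and 3 of the 13 (23.1%), against 4.34% of all windows. These letters were chosen with the results known, the shares rest on few genes, and a match is not a binding site.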

How the data were processed

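The authors deposited a table of raw read counts per gene and, per sample, log2 FPKM values. Per the submitters' processing notes, reads were handled with Subread 1.6.2, featureCounts and limma on GRCm38 (mm10). The annotation, strand setting and how the log2 values were normalized are, for these files, not given in the sources used here, so reads of overlapping genes cannot be told apart (14 of the 50 called genes overlap another gene, 4 a protein-coding one). Of 27179 genes in the count table, 16534 took their symbol from the deposited files, 8784 from RefSeq GRCm38.p6, and 1861 have none; reads of genes with no symbol were 1.411% to 2.439% of the GP38-positive libraries. 6 columns match no sample used here and were not used.

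Counts were filtered by group with filterByExpr, scaled by TMM and fitted with edgeR 4.0.16 in R 4.3.3 (glmQLFit and glmQLFTest) over the 8 stromal libraries as 4 groups of 2, with Benjamini-Hochberg adjustment over all 16413 genes tested. Whole VAT was fitted the same way among 14 fat and adipocyte libraries. The log2 FPKM values served only for levels per length. Replicate pools differed beyond sampling noise. Chi-square per degree of freedom was 58.2 in male and 118.2 in female GP38-positive pools, and 184.1 and 141.4 in GP38-negative ones. The fit estimated the spread over all 8 stromal libraries. SEs and p-values for GP38-positive cells thus also carry the spread of the GP38-negative pools. Xist, used only as a label check, had no count in male GP38-positive libraries. Named genes are up to 10 called genes a direction with the largest fold changes and at least 5 CPM, up to 3 called genes of each list, and genes fixed as of interest; others are said to be chosen after their values were seen. The members and lists were chosen with earlier results of these data known. Alternatives were DESeq2 1.42.0, its size factors, no filter, the compared groups alone, a replicate block and leaving out each library.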

Additional observations from a re-analysis of the deposited data

Results flagged for a closer look

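In each gene below the sex effect of GP38-positive stroma differed from that of GP38-negative stroma by the interaction test of edgeR (adjusted p under 0.05). Values are the male over female log2 fold change in GP38-positive minus that in GP38-negative cells. The difference was 6.54 for Agt, 2.36 for Cyb561, 2.30 for Igf1, 2.52 for Errfi1, 3.75 for Serpine2 and 2.22 for Timp3. It was -3.03 for Il4ra, -3.74 for H2-Q7, -2.03 for Lpl, -3.60 for Ces1d and -5.40 for Dkk3. Except for Agt, Errfi1 and Serpine2, the edgeR adjusted p of each was 0.04995, just under the threshold.

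In the other flagged genes a group had no count or almost none, so the fitted difference depends on the prior count and is no bound. Their edgeR adjusted p was also 0.04995, except for Lrrn1, Garnl3 and Fgf7. Lrrn1 (13.97) had no count in female GP38-positive libraries, and Lck (-10.01) and Klrk1 (-9.67) had none in male ones. Male GP38-negative libraries had no count of Garnl3 (11.98), Lvrn (11.27), Bmp5 (12.10), Fgf7 (10.97) or Glb1l (11.22). Fhl4 (-17.87) had 0.0237 and 0 CPM in male against 0.933 and 2.41 CPM in female GP38-positive libraries, and 75.2 and 15.8 CPM in male against 0 and 0.0296 CPM in female GP38-negative ones.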

How the results depend on the processing

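Agt was called under all 10 alternatives tried, while Hp, Myoc and Il4ra were called under 7 and Igf1 under 6. The 50 calls in GP38-positive stroma became 514 with DESeq2, 86 with no filter and 262 with the compared groups alone, and 1 to 7 when a library was left out, where the lone sample is assumed to vary like the other groups. The 34 calls of the difference between the sorts became 764 with DESeq2, 11 with its size factors in edgeR, 81 with no filter and 0 to 477 without 1 library. The 138 calls in GP38-negative stroma became 1277 with DESeq2, 209 with no filter, 0 with the compared groups alone (1825 at an unadjusted p under 0.05) and 2 to 780 without 1 library. The 2090 calls in whole VAT ranged from 1189 to 1735 without 1 library, with 1189 without male pool 1 and 1313 without male pool 3. The cause of these changes was not tested.

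Replicate numbers have no stated meaning, and 2 numberings of the male GP38-positive libraries conflict. Male and female deviations correlated at -0.068 with the numbers in the library names. With 2 pools a group the other numbering only flips the sign, to 0.068, so it is no separate check. With a replicate block by either numbering the GP38-positive calls were 15 and 17 and the interaction calls 0 and 0 (1495 and 1508 at an unadjusted p under 0.05), and by the library names GP38-negative calls were 2.

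Genes that were not called changed sign as follows. Il6 was -0.0116 with DESeq2, -0.0091 with its size factors, -0.0745 and -0.0285 with the replicate block, and -0.9027 to 0.5346 without 1 library. Without 1 library Pdgfra ranged from -0.0359 to 0.5709, Glb1l from -0.8619 to 0.1978 and Il33 from -1.7964 to 0.1098.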
